A study of Mus musculus with 8 samples.

Results

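Peyer's patch and spleen were compared as sources of ZsGreen− T follicular helper (Tfh) cells, which made up 4 of the 8 bulk RNA-seq libraries of the series. The 4 were assigned to groups by their labels, as sorted control Tfh cells of Peyer's patch (2 libraries) and of spleen (2 libraries). All came from K/BxN mice, which develop autoimmune arthritis spontaneously, and all carried a Th17 fate-mapping reporter. In such a reporter, ZsGreen fluorescence marks cells that have been in the Th17 state, so ZsGreen− Tfh cells are those without that mark. The cells were enriched for CD4+ T cells by negative selection and sorted as CD4+, TCRβ+, CD25−, CXCR5+ and PD-1+. The ZsGreen+ Tfh cells of the same tissues (2 libraries each) were sorted with the same gates except that for ZsGreen. The sources used here do not give age, sex, pooling of animals or the alleles of the reporter. The labels do not say whether the replicates were separate animals, so p-values measure the spread between these libraries, which may be technical. Every group had 1 library in experiment 1 and 1 in experiment 2. The libraries are written PP1 and PP2 for Peyer's patch and S1 and S2 for spleen, where the digit is the experiment. The ZsGreen+ libraries carry a plus sign (PP1+, PP2+, S1+ and S2+).

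In germinal centres, Tfh cells give B cells the signals for survival, class switching and affinity maturation. Their position is set by chemokine and lipid receptors: CXCR5 draws them into the B cell follicle, while CCR7 and the sphingosine 1-phosphate receptor S1PR1 keep T cells in the T zone and in circulation. The transcription factor KLF2 maintains expression of S1PR1, and low KLF2 favours the Tfh state. Peyer's patches, the lymphoid follicles of the small intestine, hold germinal centres that are driven by gut bacteria and food antigens at all times, and gut-homing T cells use the integrin α4β7 and the receptor CCR9.

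The ZsGreen− libraries held between 10009823 (S2) and 15234833 (S1) estimated counts, and 14418 genes passed the filter on low counts. The defining Tfh genes were present in all 4 libraries. Pdcd1, which encodes PD-1, had 599 and 1231 CPM in Peyer's patch and 386 and 1578 CPM in spleen. Bcl6, which encodes the transcription factor required for the Tfh fate, had 204 and 52.4 CPM in Peyer's patch and 110.2 and 46 CPM in spleen, and Cd4 had 1254 and 789.6 CPM in Peyer's patch and 1356 and 981 CPM in spleen. Levels are given throughout as TMM-scaled CPM, the counts of a gene relative to the library's scaled total, in the order experiment 1 and experiment 2. Il2ra, which encodes CD25 and was gated out, stood between 2.55 and 4.97 CPM. Sex-linked transcripts differed between libraries: 4 Y-linked genes had 179 and 1065 counts in PP1 and PP2, and 0 and 397 in S1 and S2. The ZsGreen+ libraries had 1010 and 1482 such counts in Peyer's patch and 1094 and 1227 in spleen. Xist, the X-linked RNA of female cells, had 20046 and 1252 counts in PP1 and PP2, and 21842 and 984 in S1 and S2. PP1, PP2 and S2 thus held both kinds of transcript, and Xist differed most between the experiments. Of 5 sex-linked genes tested 0 were called by edgeR, DESeq2 or limma-voom, with 0 at an unadjusted p under 0.05. The part of this difference in other results was not tested.

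More genes were lower in Peyer's patch than higher. In edgeR's quasi-likelihood test with Benjamini-Hochberg adjustment over 14418 genes, 262 genes (1.82% of those tested) were higher in Peyer's patch than in spleen and 530 (3.68%) were lower at an adjusted p under 0.05. Together they were 792 genes (5.49%). The median log2 fold change was 1.07 for the higher genes and -1.28 for the lower ones, against 0.0031 for all genes tested. Changes of at least 4-fold were found for 55 higher and 169 lower genes. Before adjustment, 2555 genes had a p under 0.05. In bulk RNA, fewer cells of a type and less RNA per cell cannot be told apart. By the study's criterion for its own signature, a fold change of at least 1.5 with an unadjusted p under 0.05, 593 genes (4.11%) were higher and 1062 (7.37%) lower. The model has a term for the experiment, and without that term edgeR called 0 genes, with 369 at an unadjusted p under 0.05. The 792 calls were 319 without PP1 and 313 without PP2, and the 262 higher genes were 107 without PP1, 99 without PP2 and 103 without S1. The 530 lower genes were 212 without PP1 and 214 without PP2.

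**Figure D1:**
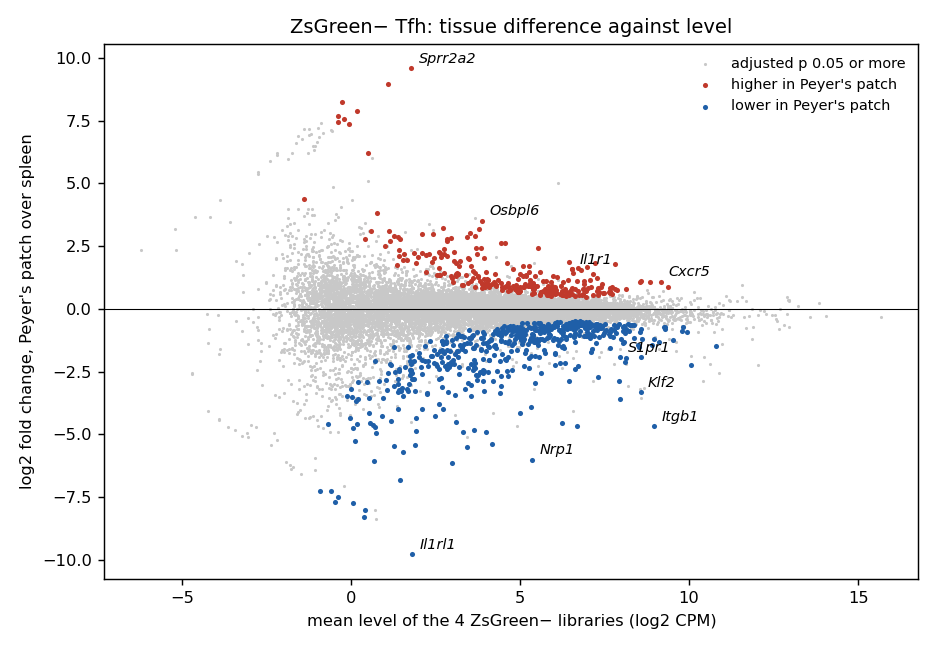
Mean level of each gene in the 4 ZsGreen− libraries (x axis, log2 CPM) against its fitted log2 fold change, Peyer's patch over spleen (y axis). Points are the 14418 genes tested: red for the 262 called higher in Peyer's patch, blue for the 530 called lower and grey for the rest. Itgb1 and Klf2 lie far below 0 at high levels, and Sprr2a2 and Il1rl1 are genes with counts in 1 tissue only.

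Nearly all called genes had the same direction in both experiments. Of the 792, 791 had the same sign in experiment 1 and in experiment 2, although 2 of the 792 had 0 counts in both ZsGreen− libraries of 1 experiment. Genes are not independent replicates, so as a description only, the difference of log2 CPM (prior count 2) in experiment 1 correlated with that in experiment 2 with r = 0.49 over the 14418 genes tested and r = 0.90 over the called genes, which were chosen on these differences. In 464 of the 792 called genes both Peyer's patch libraries lay on the same side of both spleen libraries (152 higher and 312 lower). In the other called genes the levels of the tissues overlapped.

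**Figure D2:**
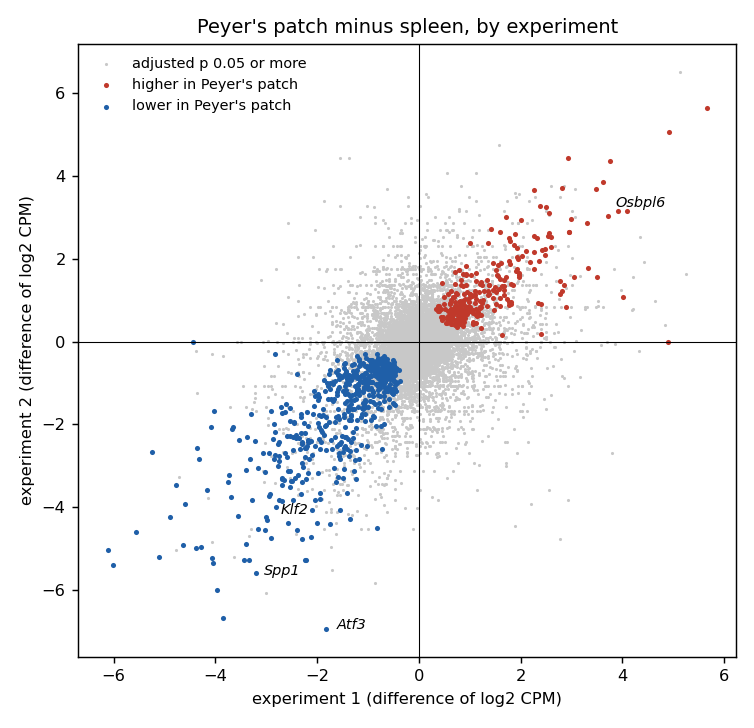
Peyer's patch minus spleen difference of log2 CPM in experiment 1 (x axis) and in experiment 2 (y axis) for each gene tested, with 1 library a side in each experiment. Red and blue points are the genes called higher and lower in Peyer's patch. All but 1 of the called points lie in the upper right and lower left quadrants, and Atf3 and Spp1 had larger differences in experiment 2 than in experiment 1.

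The receptors that keep T cells in circulation were lower in Peyer's patch. Klf2 had 56.9 and 72 CPM in Peyer's patch and 438 and 949.8 CPM in spleen, so every spleen library was above every Peyer's patch library. Its log2 fold change was -3.32 ± 0.20 (SE, adjusted p = 1.25e-05). S1pr1, the receptor for exit into blood and lymph, had 81.6 and 130.5 CPM in Peyer's patch and 348 and 439.8 CPM in spleen, a log2 fold change of -1.92 ± 0.16 (adjusted p = 4.57e-05). For S1pr1 too, the lowest spleen library stood above the highest of Peyer's patch. Ccr7, the receptor for the T zone chemokines, had 22.9 and 43.9 CPM in Peyer's patch and 95.2 and 254 CPM in spleen (-2.29 ± 0.24, adjusted p = 0.00102). Of 12 tested genes in the list for Klf2 and recirculation, 7 were called lower in Peyer's patch, against 3.68% of all genes tested. The list's median log2 fold change was -0.96. Counts of called members in every list are to be read against 1.82% of all genes tested called higher and 3.68% called lower. For this and the later gene lists, a direction that is not mentioned had 0 calls by edgeR. There were 29 such directions over all lists, which held 22 members at an unadjusted p under 0.05, 9 calls by DESeq2 and 7 by limma-voom. Other called members were S1pr4 (-1.04), Selplg, which encodes the selectin ligand PSGL-1 (-0.89), and Klf3 (-0.61). Klf2, S1pr1, Ccr7 and S1pr4 were called with any 1 library left out. Calls lost when 1 library was left out, with the highest adjusted p in parentheses, were Klf3 (0.323) without PP1, PP2, S1, S2 or S1+ and Selplg (0.282) without PP2, S1 or S2.

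**Figure D3:**
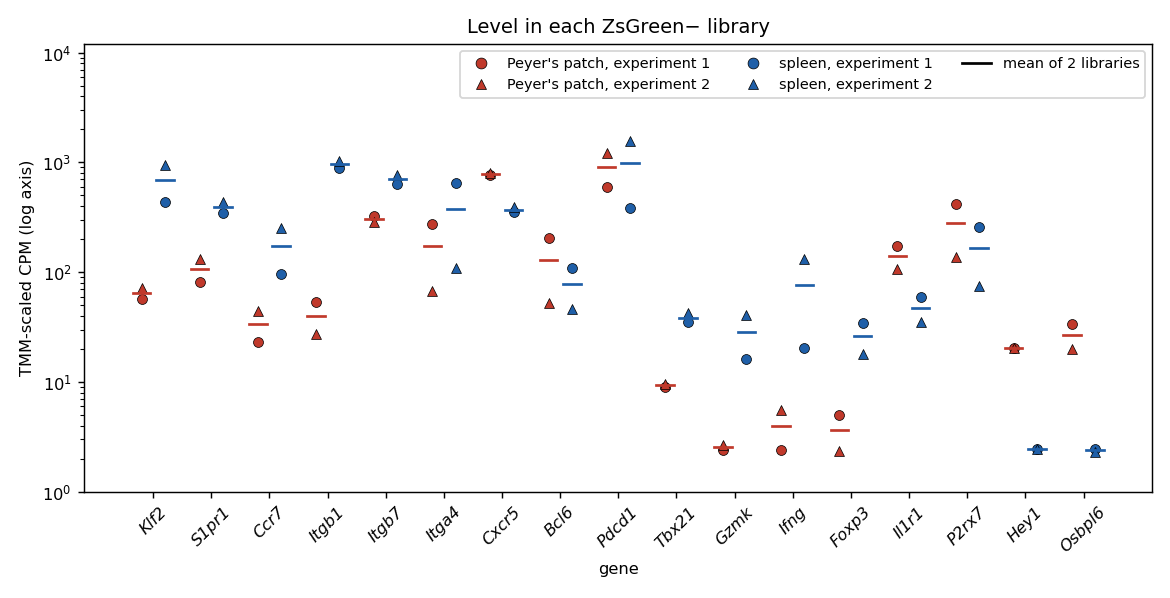
TMM-scaled CPM (y axis, log scale) of 17 genes in each ZsGreen− library, with circles for experiment 1, triangles for experiment 2 and a bar for the mean of the 2 libraries. Klf2, Itgb1 and Foxp3 are lower in both Peyer's patch libraries (red) than in both spleen libraries (blue), Cxcr5, Il1r1, Hey1 and Osbpl6 are higher, and Bcl6 and Pdcd1 overlap.

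The promoters of these genes are shown for reference to the KLF family, whose members bind CACCC boxes. Klf2 itself, on chromosome 8 (chr8:73072877-73075500 in mm39, + strand), and the integrin gene Itgb7 are printed as examples. Both were called lower and have entries in the RefSeq promoter table of build GRCm38.p6, as do Klf3 and S1pr4, which are not printed. Each window runs from 250 bases before to 50 bases after the transcription start, 5′ to 3′ on the gene's strand, and capitals mark CACCC on either strand (GGGTG on the other strand). The Klf2 window is chr8:72318812-72319111 and the Itgb7 window is chr15:102231886-102232185, both in GRCm38.p6.
Klf2: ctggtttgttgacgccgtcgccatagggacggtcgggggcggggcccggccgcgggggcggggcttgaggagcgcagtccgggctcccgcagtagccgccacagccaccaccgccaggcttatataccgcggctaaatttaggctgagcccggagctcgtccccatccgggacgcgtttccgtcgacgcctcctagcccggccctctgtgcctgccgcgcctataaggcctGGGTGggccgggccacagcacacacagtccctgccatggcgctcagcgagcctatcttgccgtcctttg
Itgb7: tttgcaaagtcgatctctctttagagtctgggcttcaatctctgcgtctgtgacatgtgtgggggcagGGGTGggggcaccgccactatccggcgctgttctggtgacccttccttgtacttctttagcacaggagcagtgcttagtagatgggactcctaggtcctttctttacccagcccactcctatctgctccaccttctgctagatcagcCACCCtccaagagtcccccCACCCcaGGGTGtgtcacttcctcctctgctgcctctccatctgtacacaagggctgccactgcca
The motif had 1 match in the Klf2 window, 4 in the Itgb7 window, 5 in that of Klf3 and 1 in that of S1pr4. These 4 genes are those with an entry among the 7 called recirculation genes and Itgb7. CACCC occurs in 57.5% of the 32851 promoter windows of the table, so a match describes the letters and no binding.

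Integrins and chemokine receptors of gut homing were not higher in Peyer's patch as a group. The 2 genes of integrin α4β7, which binds MAdCAM-1 on vessels of the gut, were both called lower in Peyer's patch. Itga4 had 276 and 67.9 CPM in Peyer's patch and 643 and 109 CPM in spleen (-0.96 ± 0.16, adjusted p = 0.00399), lower in Peyer's patch within each experiment although the ranges overlapped. Itgb7 had 322 and 285 CPM in Peyer's patch and 632 and 769 CPM in spleen (-1.19 ± 0.20, adjusted p = 0.00445). Itgb1, the β1 integrin chain, had the largest drop among abundant genes of this list, with 53 and 27.2 CPM in Peyer's patch and 892 and 1031 CPM in spleen (-4.67 ± 0.28, adjusted p = 3.87e-05). Ccr9, the receptor for the gut chemokine CCL25, had 4.08 and 7.42 CPM in Peyer's patch and 2.3 and 3.37 CPM in spleen (0.92 ± 0.44, adjusted p = 0.322), and Itgae, which encodes the αE chain CD103, had 5.99 and 1.99 CPM in Peyer's patch and 2.67 and 0.766 CPM in spleen (1.25 ± 0.48, adjusted p = 0.186). Neither passed the threshold, although Ccr9 was higher in both Peyer's patch libraries than in both spleen libraries. A p that misses the threshold does not show that levels were equal.

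Of 25 tested genes for gut homing and tissue residence, 1 was called higher and 8 lower, with a median of -1.19. The member called higher was Cd160, a receptor of intraepithelial and cytotoxic lymphocytes, with 40.5 and 232 CPM in Peyer's patch and 16.9 and 119 CPM in spleen (1.10 ± 0.17, adjusted p = 0.00359). Others called lower were chemokine and orphan receptors: Cxcr3 (-1.36), a Th1 receptor, Ccr8 (-2.80), Ccr10 and Gpr15. Gpr15, the receptor for homing to the colon, had 0.218 and 0.554 CPM in Peyer's patch and 6.31 and 8.12 CPM in spleen (-4.36 ± 0.52, adjusted p = 5.34e-04). Gpr15 shares 12.5% of its exon length with Cpox on the opposite strand, whose mean count in these libraries was 491 against 45 for Gpr15. Ccr10 had 1 count in Peyer's patch and 111 in spleen, a ratio of 121 (95% exact binomial interval 21.2 to 4805, counting error only) in favour of spleen. Itgb1 and Gpr15 kept their calls with any library left out. Calls ended by leaving out 1 library were Itga4 (0.0848) without PP1, Itgb7 (0.0894) and Cd160 (0.0629) without PP2, Cxcr3 (0.139) without PP1 or PP2 and Ccr8 (0.131) without PP2 or S2. So was Ccr10 (0.164) without PP1, PP2 or S1.

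Among genes of germinal centre positioning, Cxcr5 was higher in Peyer's patch. It had 767 and 802 CPM in Peyer's patch and 351 and 389.5 CPM in spleen, so both Peyer's patch libraries stood above both spleen libraries, and its log2 fold change was 1.08 ± 0.16 (adjusted p = 0.0023). CXCR5 protein was part of the sort gate in both tissues. S1pr2, which holds Tfh cells inside germinal centres, had 72.3 and 49.5 CPM in Peyer's patch and 48.2 and 60.7 CPM in spleen (0.14, adjusted p = 0.814). Gpr183, the oxysterol receptor EBI2 that draws cells to the edge of the follicle, had 95.7 and 510 CPM in Peyer's patch and 98.1 and 402 CPM in spleen (0.15, adjusted p = 0.769). Of 17 tested members 1 was called higher (Cxcr5) and 1 lower, Efnb2, an ephrin ligand (-2.50), with a median of -0.34, against 1.82% higher and 3.68% lower over all genes. DESeq2 and limma-voom each called 2 members higher and 3 lower. Cxcr5 was called with any library left out. The call of Efnb2 was lost without PP1, PP2 or S2 (highest adjusted p = 0.418).

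Bcl6, Pdcd1, Icos, Maf and Cd4 were not called in the fit on all libraries. With 1 library left out, Bcl6 gained a call without S2 and Icos without S2, PP1+ or PP2+. The fitted log2 fold change of Bcl6 was 0.53 ± 0.27 (adjusted p = 0.371), Pdcd1 0.07 ± 0.32 (adjusted p = 0.952), Icos, a costimulatory receptor, 0.71 ± 0.22 (adjusted p = 0.0855), Maf, a transcription factor of IL-21 and IL-4 production, 0.28 ± 0.16 (adjusted p = 0.427), and Cd4 -0.22 ± 0.19 (adjusted p = 0.647). Among 26 Tfh transcription factors and their opponents 1 was called higher and 3 lower (5.49% of all genes were called in either direction), with a median of -0.22. DESeq2 called 2 of them higher and 5 lower. Prdm1, which encodes Blimp-1, the repressor of Bcl6, had 0.708 and 0.443 CPM in Peyer's patch and 6.74 and 5.06 CPM in spleen (-3.29 ± 0.46, adjusted p = 0.00147). Id2, an inhibitor of E proteins that opposes the Tfh fate, had 66.4 and 208 CPM in Peyer's patch and 143 and 638 CPM in spleen (-1.34 ± 0.20, adjusted p = 0.00224). Bach2, a repressor of effector differentiation, was also lower (-1.24), and Cebpa was higher, at 350.4 and 27 CPM in Peyer's patch and 139 and 14.9 CPM in spleen (1.15 ± 0.25, adjusted p = 0.0325). Of 22 Tfh surface receptors and adaptors 2 were called lower, the IL-6 receptor gene Il6ra (-1.07) and the tetraspanin gene Cd81 (-0.87). Their median was 0.01, and DESeq2 called 2 higher and 3 lower. Prdm1 and Id2 were called with any library left out. Not called in all of the fits with 1 library left out were Bach2 (0.275) without PP1 or S1, Cebpa (0.224) without PP1, PP2 or S1, Il6ra (0.34) without PP1, PP2, S2 or S1+ and Cd81 (0.259) without PP1, PP2, S1 or S2.

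The helper cytokines differed by kind. Il21, the signature cytokine of Tfh cells, had 134 and 252 CPM in Peyer's patch and 125 and 247 CPM in spleen (0.06 ± 0.33, adjusted p = 0.96), and Il4 had 10.8 and 12.3 CPM in Peyer's patch and 5.19 and 13.3 CPM in spleen (0.45 ± 0.34, adjusted p = 0.562). Ifng had 2.4 and 5.54 CPM in Peyer's patch and 20.4 and 133 CPM in spleen (-3.89 ± 0.45, adjusted p = 0.00547), lower in both Peyer's patch libraries than in both spleen libraries. Il10, an anti-inflammatory cytokine, had 0.0544 and 0.111 CPM in Peyer's patch and 1.98 and 9.51 CPM in spleen. That is 2 counts in Peyer's patch and 99 in spleen, a ratio of 53.8 (95% exact binomial interval 14.5 to 450.2, counting error only) in favour of spleen (adjusted p = 0.0169). Tnf (-1.23) and Csf1 (-2.04), which encode TNF and the macrophage growth factor M-CSF, were also called lower. In all, 4 of 14 cytokine genes were called lower, with a median of -0.12. Ifng was called with any library left out. Leaving out 1 library ended the calls of Il10 (0.209) without PP1, PP2 or S2, Tnf (0.24) without PP1, PP2 or PP1+ and Csf1 (0.371) without PP1, PP2, PP1+ or PP2+.

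Genes of the Th1 and cytotoxic program were lower in Peyer's patch. Of 21 tested members 13 were called lower, 15 had both Peyer's patch libraries below both spleen libraries, and the median was -2.41. The 1 member with a positive log2 fold change was Il12rb2, a chain of the IL-12 receptor, which was not called. It had 6.15 and 9.97 CPM in Peyer's patch and 2.835 and 3.83 CPM in spleen, so both Peyer's patch libraries stood above both spleen libraries. Tbx21, which encodes T-bet, the Th1 master regulator, had 9.04 and 9.53 CPM in Peyer's patch and 34.9 and 42.2 CPM in spleen (-2.03 ± 0.36, adjusted p = 0.0149). Eomes, its relative in cytotoxic and memory cells, had 8.49 and 1.11 CPM in Peyer's patch and 38.8 and 11.2 CPM in spleen (-2.56 ± 0.36, adjusted p = 0.00134). Gzmk, a granzyme gene, had 2.4 and 2.66 CPM in Peyer's patch and 16.3 and 40.3 CPM in spleen (-3.28 ± 0.42, adjusted p = 9.22e-04), and the chemokine gene Ccl5 had 5.17 and 2.44 CPM in Peyer's patch and 36.9 and 40.9 CPM in spleen (-3.36 ± 0.31, adjusted p = 1.08e-04). The 2 chains of the IL-18 receptor, Il18r1 (-1.89) and Il18rap (-2.51), were lower together. Further members called lower were Ccl4 (-4.28), Ccl3 (-4.87), Klrk1 (-3.54), Ctsw (-1.88), Hopx (-1.45), Cxcr3 and Gzmc. Gzmc had 0 counts in Peyer's patch and was at least 9.78-fold lower there (against a floor of 3 counts over the group). It passed the filter through the spleen libraries, which fixes its sign, so its call is a description. Eomes, Gzmk, Ccl5, Il18r1, Il18rap, Ctsw and Hopx were called with any library left out. Calls lost in 1 or more of these fits were Tbx21 (0.165) without PP1, PP2 or S1, Ccl4 (0.0697) without PP2 or S2, Ccl3 (0.518) without PP1, PP2 or S2 and Klrk1 (0.274) without PP1, PP2, S1, S2 or S2+. So were Gzmc (0.236) without PP1, PP2, S1 or S2+ and Cxcr3 (0.139) without PP1 or PP2. limma-voom did not call Ccl3 (adjusted p = 0.0805) and Klrk1 (adjusted p = 0.0688).

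The Th17 list held changes in both directions. Il1r1, the IL-1 receptor, had 172 and 106 CPM in Peyer's patch and 59 and 35.1 CPM in spleen (1.58 ± 0.19, adjusted p = 5.34e-04), higher in both Peyer's patch libraries. Abcb1a, a drug efflux transporter of intestinal T cells, was higher (1.40) and Rora, a nuclear receptor gene of the Th17 fate, lower (-1.56). That makes 2 higher and 1 lower of 16 tested, with a median of -0.28, and DESeq2 called 3 higher and 3 lower. Of 6 Th2 genes 1 was higher, the chemokine receptor gene Ccr4 (74.4 and 63.3 CPM in Peyer's patch and 41.8 and 24.4 CPM in spleen; 1.09 ± 0.16, adjusted p = 0.00198), and 2 were lower. Gata3, the Th2 master regulator, was one of them (-0.82 ± 0.13, adjusted p = 0.00384). Il1rl1, which encodes the IL-33 receptor ST2, had 0 and 0 CPM in Peyer's patch and 9.52 and 4.45 CPM in spleen (adjusted p = 7.58e-04). It was at least 75-fold lower in Peyer's patch against a floor of 3 counts. Il1rl1 passed the filter through the spleen libraries, which fixes its sign, so its call is a description. The Th2 median was -1.30, and limma-voom called 1 higher and 4 lower. Il1r1, Ccr4 and Il1rl1 were called with any library left out. Calls ended by leaving out 1 library were Abcb1a (0.0555) without PP1, Rora (0.177) without PP1, PP2, S1 or S2 and Gata3 (0.0566) without PP2.

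Of 16 tested genes of regulatory T cells 5 were called lower in Peyer's patch, with a median of -1.37. Foxp3, the defining factor of regulatory and follicular regulatory T cells, had 4.95 and 2.33 CPM in Peyer's patch and 34.2 and 18.1 CPM in spleen (-2.88 ± 0.33, adjusted p = 3.99e-04). The others were Tnfrsf1b, the TNF receptor TNFR2 (-1.51), Capg (-1.75), Klrg1 (-3.69) and Entpd1, the ectonucleotidase CD39 (-3.98). Of the 16 members, 2 had a positive log2 fold change and 14 a negative one, and DESeq2 called 1 higher and 6 lower. Ikzf2, which was not called, had 274 and 230 CPM in Peyer's patch and 339 and 299 CPM in spleen. Il1r2, not called either, had 15.8 and 42 CPM in Peyer's patch and 2.14 and 17.9 CPM in spleen. Nrp1, a surface marker of thymic regulatory T cells that was not on this list, had 1.25 and 1.55 CPM in Peyer's patch and 89.8 and 71.6 CPM in spleen (-6.01 ± 0.54, adjusted p = 0.00229). Foxp3, Tnfrsf1b and Nrp1 were called with any library left out. With 1 library left out, the lost calls were Capg (0.0856) without PP2, S1 or S2, Klrg1 (0.216) without PP1, PP2, S1, S2 or S2+ and Entpd1 (0.0722) without S1.

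Genes of the naive and memory states, which here include calcium-binding and cytoskeletal genes of effector memory cells, were lower in Peyer's patch. Of 26 tested, 15 were called lower, with a median of -1.98. Ahnak, a large scaffold protein, had 63 and 6.76 CPM in Peyer's patch and 855 and 71.6 CPM in spleen (-3.60 ± 0.20, adjusted p = 1.13e-05), lower in both Peyer's patch libraries than in both spleen libraries although PP1 came close to S2. S100a4 had 7.13 and 4.1 CPM in Peyer's patch and 120.3 and 172 CPM in spleen (-4.57 ± 0.34, adjusted p = 4.51e-04) and S100a6 had 22.9 and 58.6 CPM in Peyer's patch and 139 and 407 CPM in spleen (-2.70 ± 0.17, adjusted p = 1.26e-05). Crip1 (-2.40), Anxa2 (-2.89), Emp3 (-2.17), Lgals1, which encodes galectin-1 (-1.96), Vim, which encodes vimentin (-2.11), Ly6a (-1.93) and S100a10 (-1.33) were lower too. Sox4 (-1.99), Igfbp4 (-3.47), Itm2a (-1.23), Anxa1 (-3.56) and Dapl1, with 1 count in Peyer's patch and 86 in spleen, complete the 15. Dapl1 and Igfbp4 are known from naive T cells, so the 15 include members from both ends of the list. Other members were not called. Among them Tcf7 had 2030 and 2353 CPM in Peyer's patch and 1798 and 2097 CPM in spleen. Lef1 had 175.8 and 395.6 CPM in Peyer's patch and 196.2 and 333.1 CPM in spleen. Of the 26 members, 5 had a positive log2 fold change and 21 a negative one. The ratio for Dapl1 was 93.4 in favour of spleen (95% exact binomial interval 16.3 to 3733, counting error only). S100a4 shares 51.7% of its exon length with the gene model Gm42674 on the same strand, and Sox4 54.6% with Gm26735 on the opposite strand. Not called in all of the fits with 1 library left out were Vim (0.166) without PP1, PP2 or S2+, Anxa1 (0.187) without PP2 or S1 and Dapl1 (0.275) without PP1, PP2, S1 or S2.

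Signals from the gut environment were examined through the genes that sense them. P2rx7, the ATP receptor P2X7 that limits Tfh numbers in Peyer's patch, had 419 and 136 CPM in Peyer's patch and 258 and 75.1 CPM in spleen (0.78 ± 0.14, adjusted p = 0.00632), higher within each experiment. Art2b, the ADP-ribosyltransferase that can gate P2X7, was also higher (0.73 ± 0.16, adjusted p = 0.017), and Adora2a, the adenosine receptor, was lower (-1.30) with Entpd1. That is 2 higher and 2 lower of 13 genes, with a median of -0.11. Of 9 retinoic acid genes 2 were higher and 3 lower, with a median of -0.47. Hic1, a repressor induced by retinoic acid in intestinal T cells, had 56.2 and 20.1 CPM in Peyer's patch and 16.3 and 5.06 CPM in spleen (1.83 ± 0.19, adjusted p = 2.22e-04), and Tgm2, a retinoic acid target, was higher as well (2.17). The receptor genes Rara (-2.01), Rarg (-2.66) and Rxra (-1.35) were lower. Of 16 genes of the TGF-β pathway 1 was called higher, against 1.82% of all genes tested. It was the feedback inhibitor Pmepa1 (1.40 ± 0.26, adjusted p = 0.00797). The median of the pathway was -0.24, and limma-voom called 2 higher and 2 lower. Hic1, Rara and Rarg were called with any library left out. Leaving out 1 library ended the calls of P2rx7 (0.0824) without PP2, Art2b (0.19) without PP2 or S1, Adora2a (0.102) without PP1 or PP2 and Entpd1 (0.0722) without S1. So were Tgm2 (0.198) without PP2, S1 or S2, Rxra (0.474) without PP1, S1 or S2 and Pmepa1 (0.116) without PP1, PP2 or S1.

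Target genes of Notch, a receptor pathway that promotes Tfh differentiation, were examined with a list added after Hey1 was seen among the largest increases. Hey1, a transcriptional repressor induced by Notch, had 20.5 and 20.2 CPM in Peyer's patch and 2.46 and 2.45 CPM in spleen (3.03 ± 0.29, adjusted p = 1.33e-04). Hes1, another such repressor, had 4.57 and 6.65 CPM in Peyer's patch and 0.535 and 2.76 CPM in spleen (2.23 ± 0.58, adjusted p = 0.0459). Dtx1, an E3 ligase induced by Notch, had 702 and 294 CPM in Peyer's patch and 364 and 128 CPM in spleen (1.07 ± 0.16, adjusted p = 0.00241), and Dtx4 had 20.5 and 6.65 CPM in Peyer's patch and 4.17 and 1.38 CPM in spleen (2.26). Lfng, a glycosyltransferase that modifies Notch receptors, was lower, with 55.9 and 6.54 CPM in Peyer's patch and 174 and 25.3 CPM in spleen (-1.74 ± 0.17, adjusted p = 1.26e-04). The receptor genes Notch1 (-0.31, adjusted p = 0.367) and Notch2 (-0.74, adjusted p = 0.0517) were not called. Of 33 tested genes, 4 were higher and 1 lower, with a median of -0.02, counts that include the gene that prompted the list and are a description. Hey1, Dtx1 and Lfng were called with any library left out. Calls lost in 1 or more of these fits were Hes1 (0.42) without PP1, S1, S2 or PP1+ and Dtx4 (0.0719) without PP1. limma-voom did not call Hes1 (adjusted p = 0.0994).

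Surface receptors that restrain or costimulate T cells split by gene. Of 22 inhibitory and TNF family receptors 3 were higher and 5 lower, with a median of -0.10. Cd96, an inhibitory receptor for CD155, had 138 and 324 CPM in Peyer's patch and 70.7 and 159.6 CPM in spleen (0.99 ± 0.13, adjusted p = 9.86e-04), while Cd226, the activating receptor for the same ligand, had 6.53 and 5.43 CPM in Peyer's patch and 33.8 and 33.3 CPM in spleen (-2.46 ± 0.22, adjusted p = 7.09e-05). Both differences held within each experiment, and the ranges of Cd96 overlapped between the tissues. Fas, a death receptor, was higher (0.69), as was Cd160. Tnfrsf9 (-1.18) and Tnfrsf25 (-1.09), which encode the costimulatory receptors 4-1BB and DR3, Tnfsf4, which encodes OX40 ligand (-2.44), and Cd274, which encodes PD-L1 (-0.86), were lower. Among 23 cytokine receptor and signalling genes 4 were called lower: Il10ra (-1.74 ± 0.23, adjusted p = 0.0011), Il2rb (-0.89), Il6ra and Socs2 (-2.93). Their median was -0.32, and DESeq2 called 7 lower. Cd96, Cd226, Tnfrsf9, Tnfrsf25 and Il10ra were called with any library left out. Calls ended by leaving out 1 library were Fas (0.183) and Tnfsf4 (0.198) without PP1, PP2, S1 or S2, Cd160 (0.0629) and Il2rb (0.125) without PP2, Cd274 (0.315) without PP1, PP2 or S2 and Il6ra (0.34) without PP1, PP2, S2 or S1+. So was Socs2 (0.142) without PP1, PP2 or S1. Socs2 was not called by limma-voom (adjusted p = 0.054).

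Immediate early genes, which rise within minutes of stimulation or of handling, leaned towards spleen. Among the ZsGreen− libraries S2 had by far the highest level of them. Of 29 tested, 28 had a negative log2 fold change and 6 were called lower, with a median of -1.44. DESeq2 called 14 of them lower and limma-voom 15. The summed level of the list was 4000 and 7897 CPM in Peyer's patch and 6889 and 48457 CPM in spleen. Fos, for example, had 155 and 743 CPM in Peyer's patch and 381 and 5022 CPM in spleen (-2.19 ± 0.70, adjusted p = 0.219), and Junb had 606 and 1606 CPM in Peyer's patch and 1360 and 13171 CPM in spleen (-2.26 ± 0.65, adjusted p = 0.139). S2 stood far above the other ZsGreen− libraries in both genes. S2+, from spleen in the same experiment, had 2012 CPM of Fos and 7540 CPM of Junb. In ZsGreen+ cells the summed level of the list was 4579 and 6087 CPM in Peyer's patch and 8771 and 24296 CPM in spleen. The 6 called were Atf3, Nr4a2 (2.07 and 1.88 CPM in Peyer's patch and 9.36 and 33.7 CPM in spleen; -3.04 ± 0.42, adjusted p = 0.00297), the MAP kinase phosphatase genes Dusp4 (-2.30) and Dusp2 (-1.44), Fosl2 (-1.93) and Irf8 (-0.93). Atf3 had 3 counts in Peyer's patch and 214 in spleen, most of them in S2, a ratio of 77.5 (95% exact binomial interval 26.2 to 378.7, counting error only) in favour of spleen. Heat shock and stress genes had a summed level of 2603 and 4130 CPM in Peyer's patch and 3714 and 10276 CPM in spleen. Of 15 tested, 2 were lower, Dnajb1 (-1.02) and Atf4 (-0.81), with a median of -0.57, and DESeq2 and limma-voom called 5 and 4 lower. Of 24 genes of T cell receptor signalling 1 was lower, the phosphatase gene Ptpn6 (-0.62), with a median of -0.0018, a share near the 3.68% of all genes. Dusp4 and Nr4a2 were called with any library left out. With 1 library left out, the lost calls were Atf3 (0.172) without PP2, Dusp2 (0.11) and Dnajb1 (0.237) without PP2 or S2, Fosl2 (0.136) without PP1 or PP2 and Irf8 (0.191) without PP1, PP2, S1 or S2. So were Atf4 (0.273) and Ptpn6 (0.169) without PP1, PP2 or S2. In the fit on the 4 ZsGreen− libraries Dnajb1 was not called (adjusted p = 0.0787). The part of this difference between libraries in other results was not tested.

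Interferon-stimulated genes were lower in Peyer's patch. Of 32 tested, 31 had a negative log2 fold change, 15 were called lower, and the median was -0.86. The summed level was 1290 and 1759 CPM in Peyer's patch and 1726 and 3160 CPM in spleen, lower in Peyer's patch within each experiment. Gbp7, a guanylate-binding protein, had 25.5 and 25.5 CPM in Peyer's patch and 71.6 and 86.3 CPM in spleen (-1.63 ± 0.16, adjusted p = 1.27e-04), Usp18, which removes ISG15 from proteins, had 3.7 and 11.5 CPM in Peyer's patch and 13.8 and 55.5 CPM in spleen (-2.09 ± 0.31, adjusted p = 0.00229), and Oasl2 had 3.32 and 4.76 CPM in Peyer's patch and 13.4 and 25 CPM in spleen (-2.19 ± 0.29, adjusted p = 9.86e-04). The others were Oas2, Ifit3 (-2.47), Ifi214 (-2.32), Oas3 (-1.66), Ifit1 (-1.26), Rtp4, Gbp2, Oas1a, Bst2, Isg20, Irgm1 and Zbp1 (-0.59), most of them sensors or effectors of antiviral defence. Gbp7, Oasl2, Ifi214 and Oas3 were called with any library left out. Not called in all of the fits with 1 library left out were Usp18 (0.0736) without PP2, Oas2 (0.161) and Zbp1 (0.184) without PP1, PP2, S1 or S2, Ifit3 (0.167) without PP1 or PP2 and Ifit1 (0.17), Rtp4 (0.191), Isg20 (0.314) and Irgm1 (0.18) without PP1, PP2 or S2. So were Gbp2 (0.0798) without PP1, Oas1a (0.29) without PP2 or S2 and Bst2 (0.32) without PP2, S1 or S2. Ifit3 was not called in the fit on the 4 ZsGreen− libraries alone (adjusted p = 0.105).

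Proliferation genes were lower in Peyer's patch in 6 of 32 tested, with 27 negative log2 fold changes and a median of -0.63, and DESeq2 called 11 lower. Kif11, a mitotic kinesin, had 20.2 and 19.4 CPM in Peyer's patch and 52.6 and 33.9 CPM in spleen (-1.12 ± 0.19, adjusted p = 0.00444). Mki67, which encodes Ki-67, had 114 and 28.9 CPM in Peyer's patch and 254 and 42.8 CPM in spleen (-0.90 ± 0.21, adjusted p = 0.04), lower within each experiment, as were Top2a (-1.33), Tpx2 (-1.03), Birc5 (-0.77) and Pcna (-0.54). Metabolic lists had few calls, in the other direction. Of 21 glycolysis and hypoxia genes 2 were higher, with a median of 0.11. Egln3, an oxygen sensor that marks HIF factors for degradation, had 175 and 143 CPM in Peyer's patch and 48.4 and 55.6 CPM in spleen (1.61 ± 0.16, adjusted p = 1.63e-04), and Tpi1, a glycolytic enzyme gene, was the other (0.56). Of 23 genes of cholesterol and fatty acid synthesis 3 were higher, Elovl6 (0.91), Scd2 (0.67) and Msmo1 (0.66), with 19 positive and a median of 0.40. Of 20 genes of oxidative phosphorylation 0 were called by edgeR, DESeq2 or limma-voom, with 0 at an unadjusted p under 0.05 and a median of -0.0018. Egln3 was called with any library left out. Leaving out 1 library ended the calls of Kif11 (0.117) without PP1 or S1, Mki67 (0.392) and Tpx2 (0.319) without PP1, PP2 or S1, Top2a (0.309) without PP1, PP2, S1 or S1+ and Birc5 (0.334) without PP1, PP2, S1, S1+ or S2+. So were Pcna (0.204) and Scd2 (0.249) without PP1, PP2, S1 or S2, Tpi1 (0.379) without PP1, PP2, S1, S2, S1+ or S2+, Elovl6 (0.188) without PP2 or S2 and Msmo1 (0.185) without PP2, S1 or S2.

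**Figure D4:**
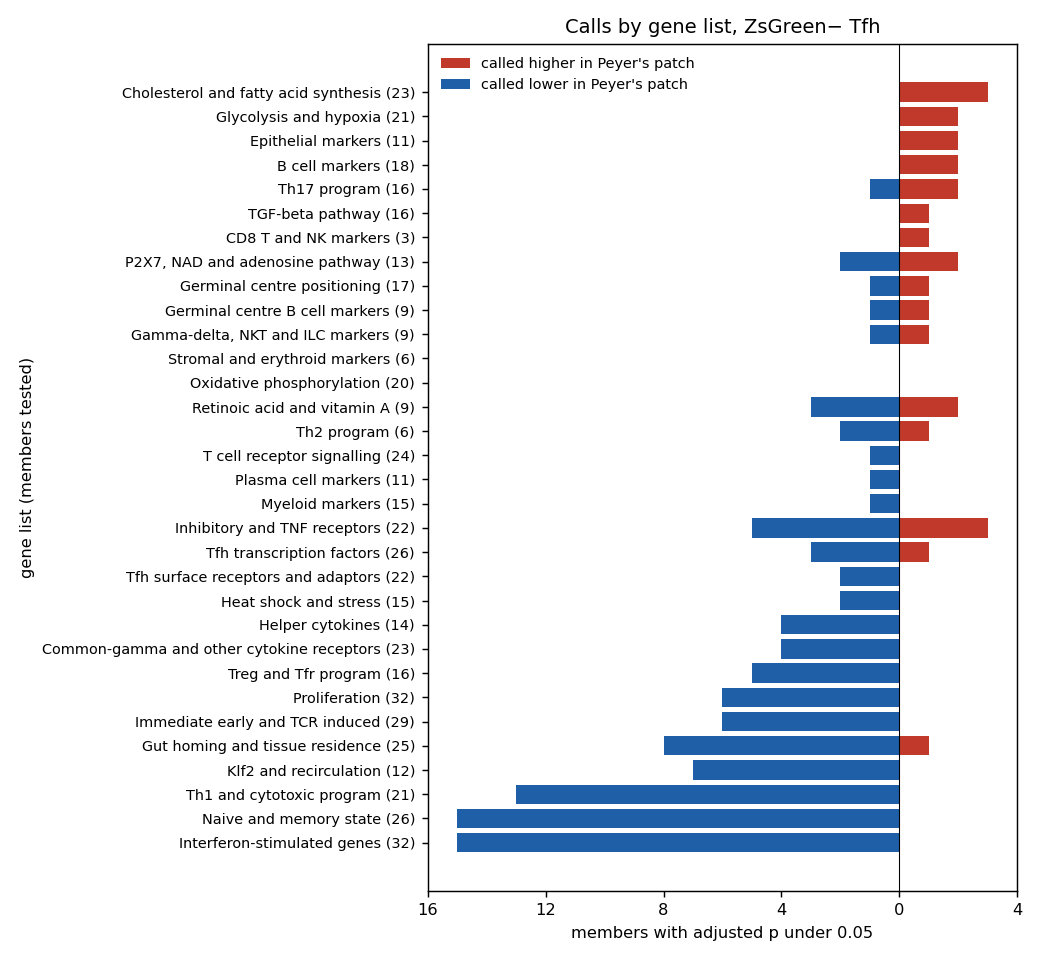
Number of members of 32 gene lists, without the added and the sex-linked ones, called higher (red, right) or lower (blue, left) in Peyer's patch at an adjusted p under 0.05, with the number of members tested in parentheses on the y axis. The interferon-stimulated, naive and memory, and Th1 and cytotoxic lists reach 15, 15 and 13 members lower, and the 3 higher members of the cholesterol list and of the inhibitory receptor list are the most in that direction among the lists plotted.

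The largest increases by the naming rule included genes not covered by these lists. Osbpl6, a lipid-binding protein of the oxysterol-binding family, had 33.9 and 19.9 CPM in Peyer's patch and 2.46 and 2.3 CPM in spleen (3.52 ± 0.29, adjusted p = 4.57e-05). Spsb1, an adaptor that targets proteins for ubiquitination, had 84.8 and 71.9 CPM in Peyer's patch and 17.6 and 12.1 CPM in spleen (2.40 ± 0.16, adjusted p = 1.26e-05). Adgrg5, an adhesion G protein-coupled receptor, had 22.1 and 27.9 CPM in Peyer's patch and 3.05 and 1.99 CPM in spleen (3.20 ± 0.26, adjusted p = 3.87e-05). In each of these the lowest Peyer's patch library was above the highest spleen library. On the log2 scale, Fads2, a fatty acid desaturase, rose by 2.98, Syp, which encodes the vesicle protein synaptophysin, by 2.87, Klhl4 by 2.84, and Cpeb1, which controls polyadenylation, by 2.60. On the same scale Slc16a5, a monocarboxylate transporter gene, rose by 2.62, Ccdc102a by 2.43 and Kcna2, a potassium channel gene, by 2.72. Apol9a had a log2 fold change of 2.96, but it has a near-identical copy, so reads may be split between them. All of these except Kcna2 were called with any library left out. The call of Kcna2 was lost without PP1 or S1 (highest adjusted p = 0.145).

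The largest decreases by the rule included genes of cell structure and secretion. Nrn1, which encodes the surface protein neuritin, had 0.816 and 0.886 CPM in Peyer's patch and 33 and 37.9 CPM in spleen (-5.39 ± 0.39, adjusted p = 1.87e-05). It shares 22.3% of its exon length with Fars2 on the opposite strand, at mean counts of 222 and 260.2. Lmna, which encodes lamin A and C of the nuclear envelope, had 1.03 and 0.554 CPM in Peyer's patch and 18.3 and 44 CPM in spleen (-4.92 ± 0.41, adjusted p = 7.09e-05). Zbtb32, a transcriptional repressor of activated lymphocytes, had 0.708 and 0.886 CPM in Peyer's patch and 16.5 and 31.9 CPM in spleen (-4.81 ± 0.33, adjusted p = 1.79e-05). Spp1, which encodes osteopontin, had 0.218 and 0.775 CPM in Peyer's patch and 3.48 and 35.6 CPM in spleen (-4.92, adjusted p = 1.85e-04), and Car5b, a mitochondrial carbonic anhydrase gene, had 0.0544 and 0.332 CPM in Peyer's patch and 5.62 and 8.74 CPM in spleen (-5.44, adjusted p = 8.57e-04). In all 5 genes both spleen libraries stood above both Peyer's patch libraries, and each was called with any library left out. Gcg, which encodes glucagon and the gut hormone GLP-1, had 0.163 and 0.997 CPM in Peyer's patch and 14.1 and 27.4 CPM in spleen (-5.51, adjusted p = 0.0353). The call of Gcg was lost without PP1, PP2, S1, S1+ or S2+ (highest adjusted p = 0.246). It was not called without the filter on low counts (adjusted p = 0.0688).

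Transcripts of enterocytes and Paneth cells were found in Peyer's patch and were at or near 0 in spleen. Fabp2, a fatty acid-binding protein of enterocytes, had 4.08 and 4.54 CPM in Peyer's patch and 0 and 0 CPM in spleen, Reg3b, an antimicrobial lectin, had 0.925 and 2.88 CPM in Peyer's patch and 0 and 0 CPM in spleen, and Sprr2a2, a small proline-rich protein of epithelium, had 6.91 and 6.87 CPM in Peyer's patch and 0 and 0 CPM in spleen. With 0 counts in spleen, the 3 genes were at least 35.6-fold, 13.2-fold and 58-fold higher in Peyer's patch against a floor of 3 counts. They passed the filter through the Peyer's patch libraries, which fixes their sign, so their calls are a description. Sprr2a2 has near-identical copies. Of 11 epithelial markers 2 were called higher, with the same limit for members without spleen counts. The list's summed level was 18.1 and 28.1 CPM in Peyer's patch and 4.49 and 9.35 CPM in spleen. Epcam, the surface marker of epithelium, had 1.36 and 3.77 CPM in Peyer's patch and 1.5 and 5.83 CPM in spleen (-0.41, adjusted p = 0.747). A list of enterocyte and Paneth cell genes was added after these values were seen, and its members passed the filter through the Peyer's patch libraries, so it is given by its level alone. The summed level of that list was 21.8 and 28.1 CPM in Peyer's patch and 0.0535 and 0 CPM in spleen. Fabp2 and Sprr2a2 were called with any library left out. The call of Reg3b was lost without PP1, PP2, S1 or S2 (highest adjusted p = 0.217). The part of such RNA in the other genes higher in Peyer's patch was not tested.

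Several B cell transcripts had their highest ZsGreen− level in PP1. The Peyer's patch minus spleen difference of log2 CPM was 2.59 in experiment 1 and 2.28 in experiment 2 for Pax5. For H2-Eb1 it was 4.02 and 1.09. Of 18 tested B cell markers 2 were called higher, by DESeq2 4 and by limma-voom 5. The median was 2.77, but some members, such as Ms4a1, had no spleen counts and passed the filter through Peyer's patch, which fixes their sign. Ms4a1, which encodes CD20, had 1.58 and 0.111 CPM in Peyer's patch and 0 and 0 CPM in spleen, and Cd79a, a chain of the B cell receptor complex, had 5.17 and 0.775 CPM in Peyer's patch and 0 and 0.153 CPM in spleen. Pax5, the B cell commitment factor, had 21.9 and 2.77 CPM in Peyer's patch and 3.53 and 0.46 CPM in spleen (2.78 ± 0.41, adjusted p = 0.00194), and the MHC class II gene H2-Eb1 had 21.2 and 2.77 CPM in Peyer's patch and 1.18 and 1.23 CPM in spleen (3.23 ± 0.62, adjusted p = 0.015). The summed level of the list was 625 and 738 CPM in Peyer's patch and 264 and 783 CPM in spleen, so S2 had the highest, and Ighm made up 202 to 714 CPM of it. Igha, the heavy chain of intestinal IgA, had 244 and 26.8 CPM in Peyer's patch and 6.79 and 0.153 CPM in spleen (adjusted p = 0.124). Among 11 plasma cell markers 1 was called lower (Prdm1, a gene of T cells too). DESeq2 called 4 of these markers higher and 1 lower, and limma-voom 3 higher and 1 lower. The plasma cell median was 1.32. Germinal centre B cell markers had 1 higher (Fas) and 1 lower (Bach2) of 9, genes that T cells also express. Not called in all of the fits with 1 library left out were Pax5 (0.228) without S1, H2-Eb1 (0.305) and Bach2 (0.275) without PP1 or S1 and Fas (0.183) without PP1, PP2, S1 or S2. H2-Eb1 was not called in the fit on the 4 ZsGreen− libraries (adjusted p = 0.0502). The part of B cell RNA in the other results was not tested.

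For markers of further cell types the calls were single genes, to be read against the 5.49% of all genes called. Of 15 myeloid markers 1 was called lower, Vcam1 (-3.16), and the list's summed level was 143 and 144 CPM in Peyer's patch and 122 and 175 CPM in spleen. By limma-voom 1 myeloid marker was called higher and 0 lower. Of 3 markers of CD8 T and NK cells 1 was higher, Klrb1c, which encodes the NK cell receptor NK1.1 and has near-identical relatives (50.3 and 67.2 CPM in Peyer's patch and 17.1 and 18.6 CPM in spleen; 1.69 ± 0.16, adjusted p = 1.20e-04). Cd8b1 had 4.63 and 5.1 CPM in Peyer's patch and 4.65 and 10.3 CPM in spleen (adjusted p = 0.649). Of 9 markers of γδ T, NKT and innate lymphoid cells, Kit was higher (15.3 and 6.54 CPM in Peyer's patch and 3.1 and 1.84 CPM in spleen; 2.18 ± 0.28, adjusted p = 8.57e-04) and Il1rl1 lower, and Zbtb16, the NKT factor, had 0.653 and 0.332 CPM in Peyer's patch and 1.02 and 1.07 CPM in spleen (adjusted p = 0.533). Of 6 stromal and erythroid markers 0 were called by edgeR, DESeq2 or limma-voom, with 0 at an unadjusted p under 0.05. Klrb1c and Kit were called with any library left out. The call of Vcam1 was lost without PP2, S1, S2 or S1+ (highest adjusted p = 0.208). It was not called by limma-voom either (adjusted p = 0.0521).

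The same tissue contrast in ZsGreen+ Tfh, measured in other libraries of the same experiments, called 794 genes higher (5.51%) and 1034 lower (7.17%). Of the 262 genes higher in Peyer's patch in ZsGreen− cells, 188 were also called higher in ZsGreen+ cells, which is 71.8% of the former list and 23.7% of the latter. Of the 530 lower genes 365 were also called lower, or 68.9% and 35.3%. Another 34 of the 792 had the opposite sign in ZsGreen+ cells. Klf2 and S1pr1 had log2 fold changes of -3.03 and -1.93 in ZsGreen+ cells, against -3.32 and -1.92 in ZsGreen− cells, with adjusted p of 0.849 and 1 for the difference between the sorts. Bcl6 was higher in Peyer's patch in ZsGreen+ cells (1.49, adjusted p = 0.0111), and the test of the difference between the sorts gave adjusted p = 0.536.

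The difference of the tissue effect between the sorts passed the test for 14 genes (0.0971%), 5 of them among the 792. Adgrg5 had the smallest p. It was higher in Peyer's patch in ZsGreen− cells (3.20), while in ZsGreen+ cells it had 18.8 and 22.4 CPM in Peyer's patch and 31.2 and 29.1 CPM in spleen (-0.56, adjusted p = 0.105). The difference between the sorts was 3.76 ± 0.33 (adjusted p = 0.00145). Ccdc102a, which lies near Adgrg5 on chromosome 8, had a difference of 2.29 (adjusted p = 0.0172). Furin, a protease that activates precursors such as TGF-β, had 137 and 35 CPM in Peyer's patch and 98.9 and 31.4 CPM in spleen in ZsGreen− cells (0.34, adjusted p = 0.422) and 195 and 66.3 CPM in Peyer's patch and 671 and 322 CPM in spleen in ZsGreen+ cells, a difference of 2.38 (adjusted p = 0.0155). Acsbg1, an acyl-CoA synthetase gene, and Il17re, which encodes a receptor chain for IL-17C, had differences of 2.26 and 2.81 (adjusted p = 0.0172 and 0.0172). Itgb1 was lower in Peyer's patch in both sorts, with log2 fold changes of -4.67 in ZsGreen− and -2.04 in ZsGreen+ cells (adjusted p = 8.10e-04 in the latter), and this gap passed the test as well (adjusted p = 0.0338). Calls lost in 1 or more of these fits were Ccdc102a (0.161) without PP1, PP2 or PP1+, Furin (0.1) and Acsbg1 (0.1) without PP1 or PP1+, Il17re (0.258) without PP1 or PP2 and Itgb1 (0.178) without PP1, PP2, PP1+, S1+ or S2+. limma-voom did not call Il17re (adjusted p = 0.102). Y-linked counts differed between the sorts as well, and their part in these differences was not tested. The 14 genes were 2 without PP1, 4 without PP2, 93 without S1, and 3, 80 and 23 without the ZsGreen+ libraries of Peyer's patch in experiment 1, Peyer's patch in experiment 2 and spleen in experiment 1.

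**Figure D5:**
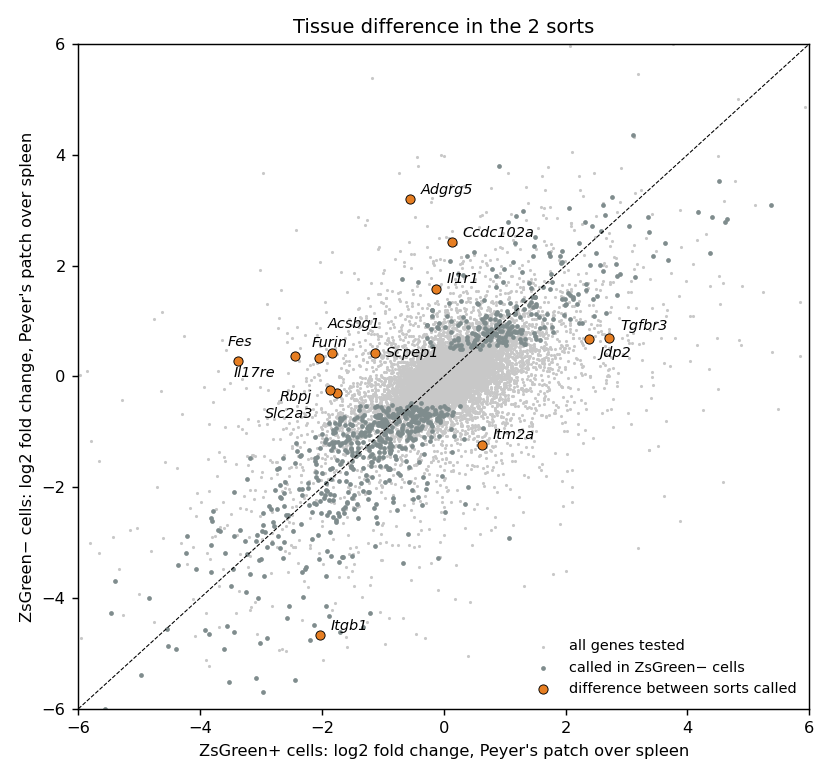
Log2 fold change, Peyer's patch over spleen, in ZsGreen+ cells (x axis) and in ZsGreen− cells (y axis) for the genes tested, with the diagonal of equal values dashed. Both axes end at 6, which leaves out 80 genes. Dark grey points are called in ZsGreen− cells and orange points are the 14 genes whose tissue effect differed between the sorts, such as Adgrg5 above the diagonal and Itgb1 below it.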

How the data were processed

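RNA of sorted Tfh cells was sequenced in 8 libraries, after poly A enrichment or a non-directional low-input preparation, without a statement of which library had which. The authors deposited estimated counts per gene, 1 table per experiment. Per the submitters' processing notes Partek, STAR, DESeq2 and mm39 were used, with versions and roles not given in the sources used here. Gene names and mm39 coordinates are those of the tables. Without strand information, overlapping genes on opposite strands cannot be told apart. Overlaps were taken from the GENCODE vM21 annotation (GRCm38), and mean counts beside them are over the libraries used.

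Counts were rounded and joined by gene identifier. Of 16735 genes in both tables, 2317 were removed by edgeR's filter (minimum count 10, total 15) and 14418 tested. TMM factors ran from 0.656 to 1.24. edgeR 4.0.16 in R 4.3.3 fitted all 8 libraries with group and experiment, leaving 3 residual degrees of freedom, and its quasi-likelihood test with Benjamini-Hochberg adjustment gave 2-sided adjusted p-values. Each SE is the absolute log2 fold change divided by the square root of that test's F statistic. It is therefore not independent of the p-value. The descriptions tie libraries to an experiment, and same-experiment libraries deviated together (r = 0.85), so the pairing was kept as a replicate block. The fit was tested on simulated data. Alternatives used DESeq2 1.42.0, limma 3.58.1 (voom), other scalings and filters, and leaving out each library.

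Genes named were a fixed set of Tfh, homing and cytokine genes, the 15 largest changes in each direction among called genes whose sign did not differ between experiments and that had a mean of at least 5 CPM in the higher group, called members of 33 gene lists, and the 5 smallest p of the difference between the sorts. Sex-linked genes, immunoglobulin and T cell receptor segments and provisional gene models were left out of the largest changes. Other genes, Fos, Junb, Notch1, Notch2, Cd8b1, Zbtb16, Epcam, Ms4a1, Cd79a and Igha among them, and 4 added lists were chosen after values were seen. The comparison, its genes and the lists were chosen with earlier results of these data known. Of 604 list symbols, 551 were in both tables and 538 were tested. Some genes that these rules name are counted but not reported here.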

Additional observations from a re-analysis of the deposited data

Results flagged for a closer look

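The tissue effect (log2, Peyer's patch over spleen) differed between ZsGreen− and ZsGreen+ cells at an adjusted p under 0.05 for 14 genes in edgeR's quasi-likelihood test. The difference was positive, a higher value in ZsGreen− cells, for Adgrg5 (3.757), Fes (3.653), Il17re (2.813), Furin (2.385), Ccdc102a (2.294), Acsbg1 (2.26), Il1r1 (1.711), Rbpj (1.611), Scpep1 (1.548) and Slc2a3 (1.46). It was negative for Itgb1 (-2.633), Tgfbr3 (-2.018), Itm2a (-1.856) and Jdp2 (-1.708). Fes lies next to Furin, and Ccdc102a near Adgrg5. Fes, a tyrosine kinase gene, had 2.34 and 0.554 CPM in Peyer's patch and 1.44 and 1.07 CPM in spleen in ZsGreen− cells and 4.22 and 1.57 CPM in Peyer's patch and 35.8 and 21.1 CPM in spleen in ZsGreen+ cells. Rbpj, the DNA-binding partner of Notch, had 35.4 and 11 CPM in Peyer's patch and 40.4 and 13.9 CPM in spleen in ZsGreen− cells and 39.4 and 13.2 CPM in Peyer's patch and 159 and 42.6 CPM in spleen in ZsGreen+ cells. Slc2a3, a glucose transporter gene, had 27.3 and 16.7 CPM in Peyer's patch and 36.1 and 18.7 CPM in spleen in ZsGreen− cells and 19.2 and 11.5 CPM in Peyer's patch and 68.1 and 36.8 CPM in spleen in ZsGreen+ cells.
Calls ended by leaving out 1 library were Fes (0.662) without PP1, PP2, S1, PP1+, S1+ or S2+, Il17re (0.258) without PP1 or PP2, Furin (0.1) and Acsbg1 (0.1) without PP1 or PP1+ and Ccdc102a (0.161), Tgfbr3 (0.395) and Itm2a (0.123) without PP1, PP2 or PP1+. So were Il1r1 (0.151) without PP1, PP2 or S1+, Rbpj (0.203) without PP1, PP2, PP1+ or S1+, Scpep1 (0.258) without PP1, PP2, S2, PP1+ or S2+ and Slc2a3 (0.236) and Jdp2 (0.277) without PP1, PP2, S2, PP1+, S1+ or S2+. So was Itgb1 (0.178) without PP1, PP2, PP1+, S1+ or S2+. limma-voom did not call Il17re (adjusted p = 0.102), Fes (adjusted p = 0.0604), Jdp2 (adjusted p = 0.0599) and Scpep1 (adjusted p = 0.0656).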

How the results depend on the processing

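Without the replicate block that pairs libraries of 1 experiment, edgeR called 0 genes (0 higher, 0 lower, 0 list members, 0 differences between the sorts), with 369 at an unadjusted p under 0.05, all of them past 1.5-fold (108 higher, 261 lower). Leaving out 1 library at a time gave 313 to 893 called genes (99 to 306 higher, 212 to 587 lower), 541 to 653 higher and 933 to 1127 lower genes by the study's criterion, 68 to 163 called list members against 127, and 2 to 93 differences between the sorts. A tissue and sort left with 1 library was assumed to vary like the others. The 14 differences between the sorts were 47 without the filter on low counts and 144 by DESeq2. Without S1 the share of higher genes among calls fell from 33.1% to 19.1%. Other scalings, filters, tools and the fit on the 4 ZsGreen− libraries alone kept the total counts of called genes and of genes by the study's criterion within 1.5 times, and 758 of the 792 were called in the latter fit. Of 149 called genes named here, 149 kept their sign in all 17 alternatives that gave a value, and 72 were called with any library left out. The 149 were chosen by their calls in these same libraries, so the kept signs are a description. Some named genes that were not called in the fit on all libraries gained a call when 1 library was left out. They were Bcl6 (without S2), Icos (S2, PP1+ or PP2+), Fos, Junb and Igha (PP1+ or PP2+) and Notch2 (any ZsGreen+ library). Ms4a1 (PP2+, S1+ or S2+), Cd79a and Tgfbr3 (S1+ or S2+) and Jdp2 (PP2+) gained a call too. Of 33 list medians, 24 kept their sign. Those that changed it in at least 1 alternative were glycolysis, helper cytokines, the Th17 program, Tfh surface receptors, T cell receptor signalling, oxidative phosphorylation, and plasma cell, CD8 T and NK, and stromal markers. With 10009823 to 15234833 counts a library, 1 count was 0.0535 to 0.153 CPM in the ZsGreen− libraries, so lower levels were not resolved.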
